A study of Homo sapiens with 10 samples.

Results

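The peaks described here are all those that the authors called on human chromosome 7 in a ChIP-seq study of H4R3me2s, in which arginine 3 of histone H4 carries 2 methyl groups placed symmetrically. They were chosen by position alone, as every entry on chromosome 7 in 13 peak lists. The 9 lists of single libraries, each called against Input, held 5783 such peaks of 67753 in all. The 4 pooled lists, in which merged BDNF+Dox reads were called over merged BDNF or merged Naive reads, held 6181 of 63273.

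The cells were SH-SY5Y, derived from a human neuroblastoma and widely used as a model of neurons after differentiation. The Naive group (n = 3) was left undifferentiated. The BDNF group (n = 3) was differentiated over 10 days, of which 6 were spent in 10 µM retinoic acid and the last 4 in the growth factor BDNF at 50 ng/ml. The BDNF+Dox group (n = 3) had the same course plus 1 µg/ml doxycycline over 3 days, which induced α-synuclein through a Tet-on system. All groups are 1 cell line grown in zeocin, and the labels give neither the clone nor separate cultures for the replicates, so each p-value reflects the spread between these libraries alone, which may be technical. Doxycycline and α-synuclein came together and cannot be told apart, since no doxycycline-only control was analysed here. A single Input library was the control of all 9 libraries.

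H4R3me2s is written mainly by the methyltransferase PRMT5, which works with chromatin remodelling complexes of the BAF type, and it is best known as a mark of repressed genes. Chromosome 7 carries several very long neuronal genes, among them CNTNAP2, MAGI2 and AUTS2, as well as the HOXA cluster and the Williams syndrome region. SH-SY5Y is known to carry an extra copy of chromosome 7 and gains of parts of chromosomes 1, 2 and 17. Copy number was not measured here.

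Few peaks touched a transcription start, and 2 promoters with bases under a peak before a protein-coding start are shown, 1 from a library and 1 from a pooled list. A promoter window ran from 250 bases before to 50 after a start in RefSeq (GRCh38.p14), and only the 250 bases before the start are printed, 5′ to 3′ along the gene, with the bases under the peak in capitals.

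OSBPL3 upstream bases: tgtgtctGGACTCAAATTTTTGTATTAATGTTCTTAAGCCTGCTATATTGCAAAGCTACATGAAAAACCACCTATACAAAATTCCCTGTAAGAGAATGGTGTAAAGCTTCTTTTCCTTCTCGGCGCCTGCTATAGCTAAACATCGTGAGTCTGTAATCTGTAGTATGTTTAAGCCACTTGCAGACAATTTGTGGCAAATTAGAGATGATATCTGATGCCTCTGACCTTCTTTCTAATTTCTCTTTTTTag
CHN2 upstream bases: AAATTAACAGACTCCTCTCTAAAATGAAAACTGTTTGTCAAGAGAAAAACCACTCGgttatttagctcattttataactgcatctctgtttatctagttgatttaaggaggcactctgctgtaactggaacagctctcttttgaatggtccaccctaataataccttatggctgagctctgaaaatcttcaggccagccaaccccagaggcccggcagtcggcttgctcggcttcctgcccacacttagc
OSBPL3 encodes a protein of the oxysterol-binding family, and the printed bases are chr7:24892622-24892871 on the minus strand. CHN2 encodes β-chimaerin, a GTPase-activating protein for Rac, and its bases are chr7:29483566-29483815 on the plus strand. Both starts lie inside the annotated gene span, that is, at an internal start.

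In OSBPL3, 241 of the 250 bases lay under a peak of the library BDNF+Dox 3, to which the authors' deposited table gives a fold of 4.07 and q = 1. In CHN2, 56 bases lay under a peak of the pooled BDNF+Dox over BDNF list, which has fold 3.91 and q = 0.0477 in the authors' deposited table. The GC content of these stretches was 36.8% in OSBPL3 and 44.4% in CHN2, against a median of 62.4% over the 1118 protein-coding windows of the chromosome. Of these windows, 4.29% had a GC content at or below that of OSBPL3 and 15.3% one at or below that of CHN2. The dinucleotide CG occurred 3 times in the OSBPL3 stretch and 4 times in that of CHN2, where the median window held 16. AHCYL2, a relative of adenosylhomocysteinase, was the other gene with a peak at a start, in BDNF+Dox 2, which covered 190 of the 250 bases before its start at 129368380. These are not printed, since most lie past another start of the gene at 129368141 (fold 3.67 and q = 1 in the authors' deposited table).

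In total, 8 of 1779 promoter windows of the chromosome, coding or not, overlapped a library peak, and 5 overlapped a pooled narrow peak. Among the 1118 protein-coding windows these numbers were 3 and 1. Of 68 microRNA hairpins, only MIR4652 (chr7:93716928-93717005, plus strand) lay under a peak, that of BDNF+Dox 3 from 93716908 to 93717170. Its mature sequences are given from RefSeq with the seed, bases 2 to 8, in capitals. The seeds of both arms differ, and the authors' deposited table gives the peak a fold of 3.30 and q = 1.
hsa-miR-4652-5p: aGGGGACUgguuaauagaacua
hsa-miR-4652-3p: gUUCUGUUaacccauccccuca

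Peaks were also scarce in the wider surroundings of starts. Stretches within 2 kb of a protein-coding start made up 2.28% of the usable length of the chromosome, counted as the 157 windows of 1 Mb with any gene or library peak. They held 7, 5 and 8 of the chromosome 7 peaks in the Naive libraries, 8, 7 and 5 in the BDNF libraries, and 10, 2 and 16 in the BDNF+Dox libraries. As shares these ran from 0.399% in BDNF+Dox 2 to 2.58% in BDNF+Dox 3. The share lay below that of the length in 8 of 9 libraries, with a mean difference of −1.04 ± 0.671 percentage points (SD, n = 9, exact two-sided sign-flip permutation p = 0.00781, adjusted over 7 such measures 0.0109), and only BDNF+Dox 3 lay above it. The groups overlapped (exact permutation p of the F ratio = 0.796). By gene, only CHN2 had a peak within 2 kb of a start in 3 or more libraries, with 3. Another 7 genes had one in 2 libraries and 56 in 1.

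The chromosome stood out by its number of peaks. The Naive libraries had 1162, 520 and 566 peaks on chromosome 7, the BDNF libraries 441, 466 and 605, and the BDNF+Dox libraries 902, 501 and 620. The group means were 749 ± 358, 504 ± 88.4 and 674 ± 206 (SD, n = 3 each), and the groups overlapped (exact permutation p of the F ratio = 0.446, adjusted over 5 group tests 0.954). Naive 1 and BDNF+Dox 1 were the libraries with the most peaks, on chromosome 7 as in total. As a share of the library's peaks on chromosomes 1 to 22 and X, chromosome 7 held 9.58%, 8.91% and 7.21% in the Naive libraries. The BDNF libraries had 7.22%, 10.3% and 8.83%, and the BDNF+Dox libraries 8.35%, 7.25% and 9.84%. It made up 5.41% of the usable length. No group stood apart in this share (exact permutation p = 0.954, adjusted over 5 group tests 0.954).

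Per Mb of usable length, chromosome 7 held 1.65 times as many peaks as the other autosomes (geometric mean over the libraries), or 0.72 ± 0.22 on the log2 scale (SD, n = 9). The ratio was above 1 in 9 of 9 libraries, from 1.36 in BDNF+Dox 2 to 2.04 in BDNF 2 (exact two-sided sign-flip permutation p = 0.00391, the smallest that 9 libraries can give, adjusted over 7 measures 0.00684). The libraries share 1 cell line and 1 Input, so this tests the spread between libraries and not between cell lines. Naive had a mean ratio of 1.67 ± 0.249, BDNF 1.71 ± 0.323 and BDNF+Dox 1.62 ± 0.268 (SD, n = 3 each), and the groups did not separate (exact permutation p = 0.911, adjusted over 5 group tests 0.954).

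Among 23 chromosomes, chromosome 7 had the highest mean density, at 4.09 ± 1.51 peaks per usable Mb (SD, n = 9). Chromosome 4 followed with 3.25 ± 1.31, chromosome X with 2.90 ± 1.02 and chromosome 1 with 2.89 ± 0.962. Chromosome 7 was denser than each of the 21 other autosomes in 9 of 9 libraries (exact sign-flip permutation p adjusted over 22 comparisons = 0.00409 for each) and denser than X in 7 of 9 (adjusted p = 0.0156). The pooled lists, which have no replicates, placed it first as well, with 6.25 narrow peaks per usable Mb over BDNF and 4.76 over Naive. The next were chromosome 1 with 4.83 over BDNF and 4.01 over Naive. In these lists chromosome 7 held 982 of 9850 narrow peaks over BDNF and 747 of 7882 over Naive, or 9.97% and 9.48% (95% exact binomial intervals 9.38% to 10.6% and 8.84% to 10.1%, which cover counting error only). In the broad lists it held 2495 of 25226 and 1957 of 20165, or 9.89% and 9.70%.

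**Figure D1:**
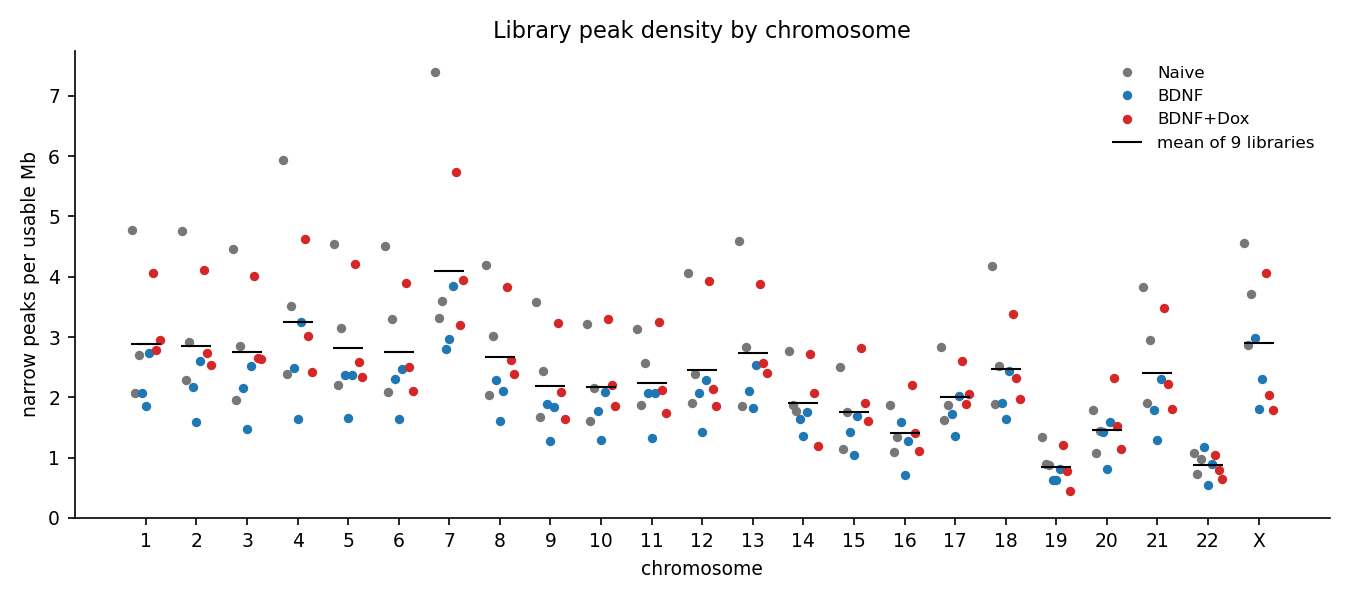
Narrow peaks per usable Mb (y axis) on each chromosome (x axis) in the 9 libraries called against Input; points are libraries coloured by group and the black bar is the mean. Chromosome 7 has the highest mean, 4.09 peaks per usable Mb, and the highest point of any chromosome in Naive 1.

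The control signal at these peaks was also the highest of the 23 chromosomes. MACS2, the peak caller, divides the pileup, the number of fragments stacked at a peak, by a local background taken from the control, and that background can be recovered from the deposited pileup and fold. It cannot fall below the genome-wide mean of the control. Over BDNF, the median background at chromosome 7 narrow peaks was 4.78 fragments, against 3.42 for the median of the other autosomes and 4.03 on chromosome 1, the next highest. Over Naive it was 4.71, against 3.42 and 4.00. Chromosome 17 stood at 4.00 in both lists, and chromosome 2 at 3.75 and 3.91. In the libraries, the control was the same single Input for all 9. The chromosome 7 median there ran from 1.27 in BDNF 2 to 1.69 in Naive 3 and ranked first in 9 of 9, which are not independent controls. Its ratio to the other autosomes was 1.40 ± 0.0901 for Naive, 1.31 ± 0.102 for BDNF and 1.35 ± 0.12 for BDNF+Dox (SD, n = 3 each, exact permutation p = 0.614). The part of this control signal in the number of peaks was not tested.

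**Figure D2:**
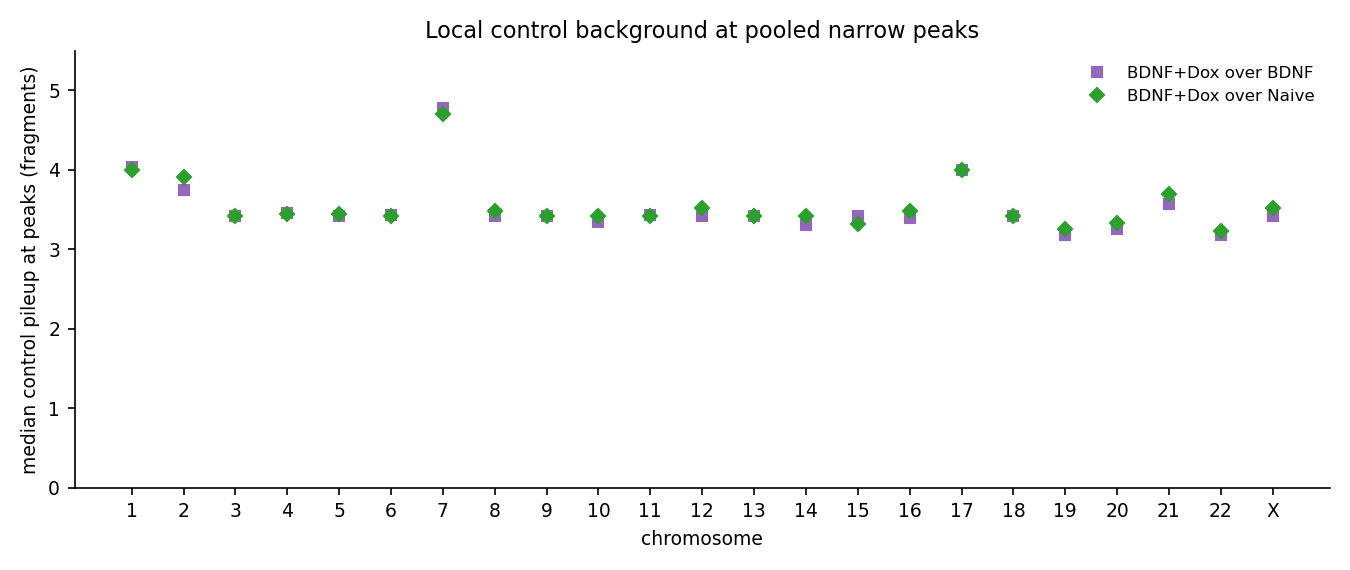
Median control background in fragments (y axis) at the pooled narrow peaks of each chromosome (x axis), for BDNF+Dox over BDNF and over Naive. Chromosome 7 lies highest in both lists, at 4.78 and 4.71, and chromosomes 1, 2 and 17 lie next.

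In the pooled lists the peaks of chromosome 7 were higher in pileup but not in fold. Their median pileup was 14.4 fragments over BDNF, against 12.5 on the other autosomes, and 13.7 against 11.7 over Naive, with a median fold of 2.61 against 2.77 and of 2.64 against 2.78. In the libraries the median pileup was higher on chromosome 7 in all but BDNF 2, where both were 6.96. The median fold was lower on chromosome 7 in 9 of 9 libraries, with a mean difference of −0.148 ± 0.0572 (SD, n = 9, exact sign-flip permutation p = 0.00391, adjusted over 7 measures 0.00684). The medians ran from 3.15 in BDNF+Dox 1 to 3.53 in BDNF 2, where the other autosomes had 3.33 and 3.58. The peaks were longer by 11.8 ± 2.93 bp in the median, in 9 of 9 libraries (same p). Pileup, fold and the recovered background are linked by calculation, and all peaks passed the same cutoff on p. At such a cutoff, a peak on a higher background needs a higher pileup and can pass at a lower fold. The difference in fold is therefore not a trait separate from the background. Of the 1162 peaks of Naive 1, 5 passed a q of 0.05, and in the other libraries between 0 and 4 did. Over chromosomes 1 to 22 and X, 50 of 12135 peaks of Naive 1 passed, and between 7 and 32 in the other libraries.

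The share of peaks on chromosome 7 moved with the fragment length that MACS2 estimated for each library. The libraries with the shortest fragments, Naive 1 (151 bp), BDNF 2 (153 bp) and BDNF+Dox 3 (154 bp), had the 3 highest shares. The libraries with the longest, Naive 3 (178 bp) and BDNF 1 (176 bp), had the lowest share and the next lowest. Over the 9 libraries Pearson's r was −0.884 (exact permutation p = 0.00368, adjusted over 3 relations 0.0111) and Spearman's rho −0.917 (exact permutation p = 0.00131, adjusted 0.00394). Without the 2 libraries farthest from the median length, r was −0.788 (n = 7, exact permutation p = 0.0341). With peaks of −log10 p of 3 or more, r was −0.661 (exact permutation p = 0.0520) and no longer passed. No relation was detected between the same share and the number of reads kept (r = −0.214, exact permutation p = 0.595; rho = −0.0833, p = 0.843) or the number of peaks (r = −0.0613, exact permutation p = 0.874; rho = −0.35, p = 0.359). Without the 2 libraries farthest in each measure, r became 0.406 for reads and −0.709 for peak number (n = 7, exact permutation p = 0.364 and 0.0601). Each group held short and long fragments, and their mean lengths of 164 ± 13.5, 162 ± 12.3 and 166 ± 10.7 bp (SD, n = 3) did not separate the groups (exact permutation p = 0.954). With 3 libraries per group the relation could not be tested within groups, and it was chosen after its values were seen.

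Along the chromosome the peaks were spread over both arms. The short arm, taken as the first 60 Mb, held 408, 190 and 215 peaks in Naive, 155, 177 and 234 in BDNF, and 340, 189 and 236 in the BDNF+Dox libraries. Per usable Mb (59 on the short arm, 98 on the long arm) its density was 0.984 times that of the long arm, from 0.899 to 1.05, and no difference between arms was detected (exact sign-flip permutation p = 0.422). The ratio did not separate the groups (exact permutation p = 0.579, adjusted over 5 group tests 0.954).

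Cut into 32 bins of 5 Mb, numbered from the tip of the short arm, the chromosome held a median of 4.22 peaks per usable Mb and library. Bin 24 (115 to 120 Mb), which holds MET and CFTR, was the densest, with 5.84 ± 2.39 (SD, n = 9). Its libraries had 55, 26 and 31 peaks for Naive, 20, 21 and 22 for BDNF, and 42, 20 and 26 for BDNF+Dox. Bin 18 (85 to 90 Mb) followed with 5.62 ± 4.27, of which 80 of 253 peaks came from Naive 1, and bin 25 (120 to 125 Mb) with 5.38 ± 2.79. The sparsest was bin 1 at the tip of the short arm, with 1.60 ± 0.6, then bin 15 (70 to 75 Mb), where the Williams region lies, with 2.82 ± 1.12, and bin 21 (100 to 105 Mb) with 2.84 ± 1.38. Bins 1, 15 and 21 overlapped 47, 39 and 90 protein-coding genes, and bins 24, 18 and 25 overlapped 14, 17 and 25. Across the 32 bins, density and number of genes had r = −0.412 and density and genic length r = −0.137, as descriptions of bins that share the same libraries.

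No bin differed between the groups after adjustment over the 593 bins of the genome (exact permutation of the F ratio with Benjamini-Hochberg adjustment, 0 of 32 called, background 0%, smallest adjusted p = 0.678). Without adjustment 2 of 32 had a p under 0.05, against a background of 6.58%. The smallest p this test can give is 0.00357, so that across the genome it has little reach for a change in a single group. limma, an empirical Bayes test on the log2 shares that has no such floor and was added after the data were seen, called 0 of 32 bins (background 0%) and found 2 at an unadjusted p under 0.05 (background 7.08%, smallest adjusted p on chromosome 7 = 0.498).

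The bins with the smallest p were 31, 13 and 27. Bin 31 (150 to 155 Mb) had 24, 12 and 18 peaks for Naive, 16, 17 and 16 for BDNF, and 24, 7 and 12 for BDNF+Dox. As a share of the library's peaks this was 0.211% ± 0.0165, 0.291% ± 0.0761 and 0.171% ± 0.0626 (SD, n = 3 each, exact permutation p = 0.0286, adjusted 0.678). Bin 13 (60 to 65 Mb), next to the centromere, had 15, 9 and 5 peaks for Naive, 12, 8 and 11 for BDNF, and 6, 7 and 4 for BDNF+Dox, with shares of 0.114% ± 0.046, 0.178% ± 0.018 and 0.0734% ± 0.0245 (exact permutation p = 0.0321, adjusted 0.681). In both bins every BDNF share lay above every share of the other groups. Bin 27 (130 to 135 Mb) had an exact permutation p of 0.161 (adjusted 0.755). In all, every BDNF+Dox share lay above every BDNF share in 2 bins (background 7.59%) and below in 2 (background 6.41%), and every BDNF share lay above every Naive share in 4 (background 5.23%) and below in 1 (background 5.06%).

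The pooled lists had a profile only loosely like that of the libraries. Across the 32 bins, narrow peaks over BDNF and BDNF+Dox bin means had r = 0.396 (rho = 0.190). Over Naive these were 0.280 and 0.0846, again as descriptions of bins. Over BDNF, bin 27 held the most narrow peaks (45), and over Naive bin 22 (105 to 110 Mb), which holds NRCAM, held the most (46). Bin 14 (65 to 70 Mb), sparse in the libraries with 3.07 peaks per usable Mb, held 40 and 36 peaks in the pooled lists. Bin 24, the densest in the libraries, held 20 and 18. Control background at the pooled narrow peaks was 4.00 in both lists in bin 14. In bin 24 it was 5.16 over BDNF and 6.00 over Naive, and its part in these counts was not tested.

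**Figure D3:**
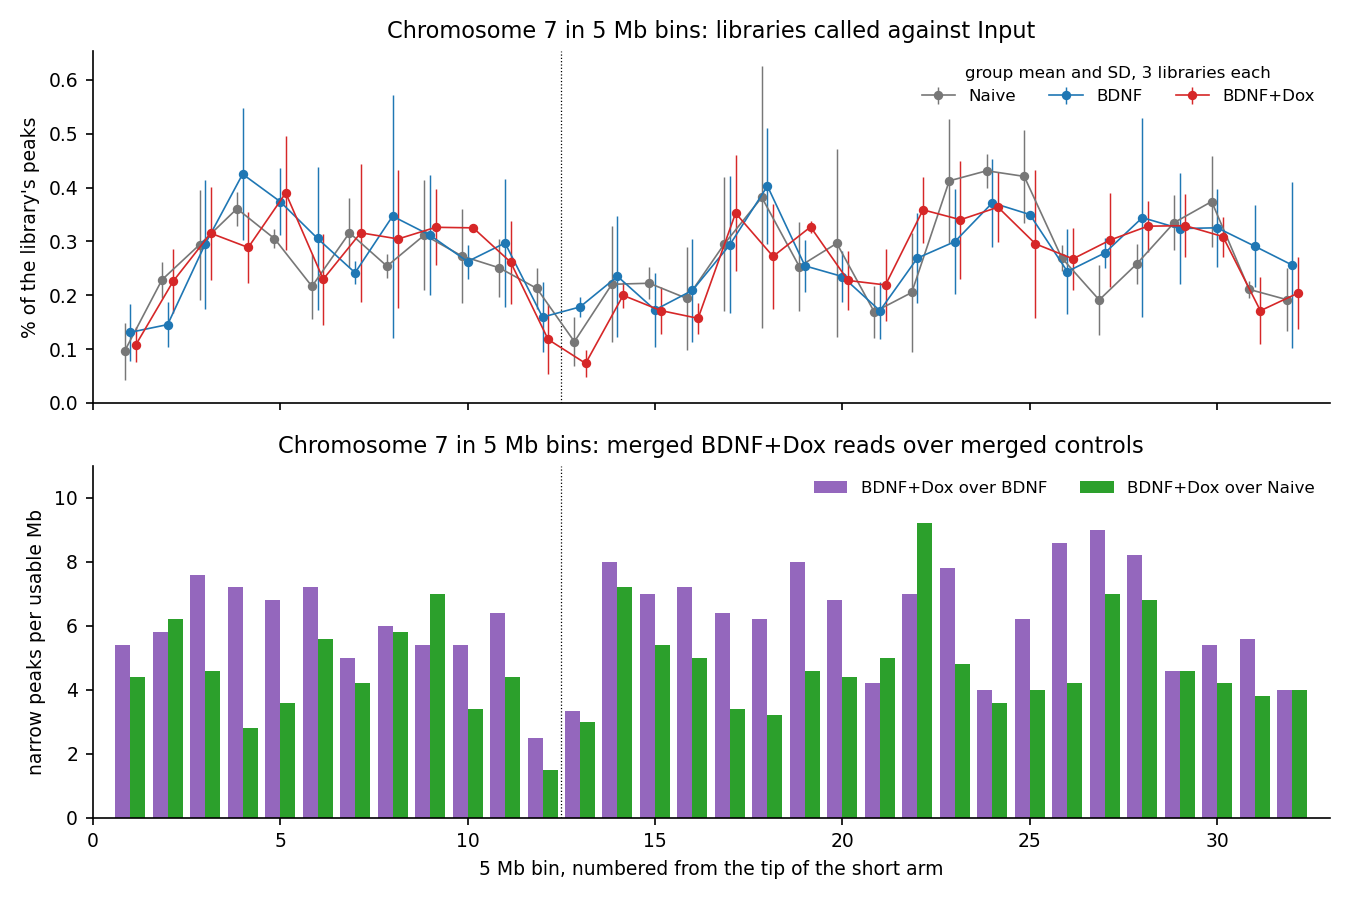
Chromosome 7 in 32 bins of 5 Mb (x axis, numbered from the tip of the short arm; dotted line, arm boundary). Upper panel, percent of each library's peaks as group mean and SD (n = 3); lower panel, pooled narrow peaks per usable Mb. Bin 24 is the densest per usable Mb over all libraries, and the pooled lists peak at bins 27 and 22.

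The share of peaks in protein-coding genes was highest in BDNF+Dox, on chromosome 7 as on the other autosomes, but the difference did not pass after adjustment. A peak counted as in a gene when its middle lay between the ends of the gene. This held for 42.3%, 42.5% and 41.7% of the chromosome 7 peaks in Naive, 42.0%, 46.1% and 44.3% in BDNF, and 46.3%, 48.5% and 48.5% in BDNF+Dox. The means were 42.2% ± 0.412, 44.1% ± 2.10 and 47.8% ± 1.26 (SD, n = 3 each). All BDNF+Dox libraries lay above all others, while BDNF and Naive overlapped. The exact permutation p of the F ratio was 0.0143, which became 0.0714 when adjusted over the 5 group tests of the chromosome and did not pass. BDNF+Dox against BDNF gave an exact permutation p of 0.1, the smallest that 3 against 3 libraries allow. Without BDNF+Dox 2 or without BDNF+Dox 3, the exact permutation p of the F ratio was 0.05 in both cases.

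On the other autosomes the gene shares were 37.7% ± 1.39 for Naive, 39.5% ± 1.99 for BDNF and 42.3% ± 1.76 for BDNF+Dox (SD, n = 3 each, exact permutation p = 0.0464, chosen after seeing the data). The difference between chromosome 7 and the other autosomes did not separate the groups, being 5.94, 4.75 and 2.60 percentage points in the Naive libraries, 4.72, 5.65 and 3.45 in the BDNF libraries, and 5.42, 6.77 and 4.26 in the BDNF+Dox libraries (exact permutation p = 0.611). Over all libraries chromosome 7 had the higher gene share in 9 of 9, by 4.84 ± 1.29 points (SD, n = 9, exact sign-flip permutation p = 0.00391, adjusted over 7 measures 0.00684). The length that genes cover on the other autosomes was not computed, so comparisons of gene share with them do not account for it. Protein-coding genes cover 47.1% of the usable length of chromosome 7, more than the share of peaks in 7 of 9 libraries (mean difference of −2.38 points, exact sign-flip permutation p = 0.0469, adjusted 0.0547). In the pooled narrow lists 54.8% of the peaks over BDNF and 53.7% over Naive lay in protein-coding genes, against 45.1% and 47.1% on the other autosomes.

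**Figure D4:**
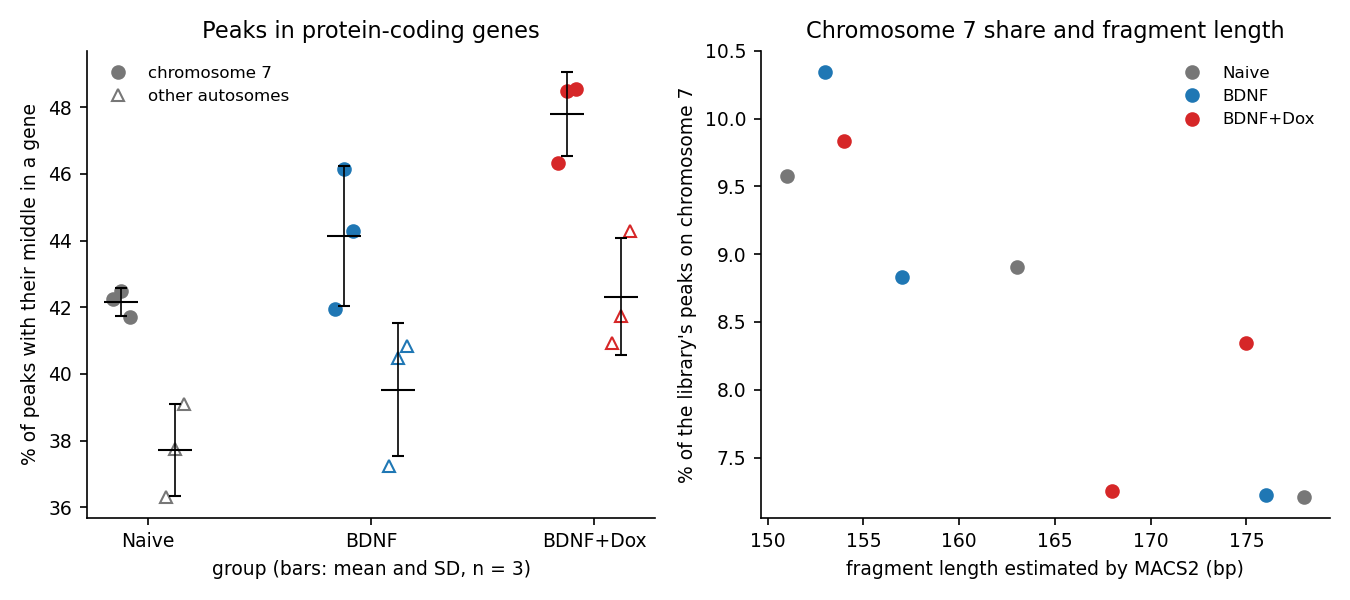
Left, percent of peaks with their middle in a protein-coding gene (y axis, not starting at 0) by group, for chromosome 7 (filled circles) and the other autosomes (open triangles), with mean and SD of 3 libraries. Right, percent of a library's peaks on chromosome 7 against the fragment length in bp. The BDNF+Dox circles lie between 46.3% and 48.5%, above all others on chromosome 7, and the share falls from short to long fragments (r = −0.884, n = 9).

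Of 938 protein-coding genes on the chromosome, 449 held a peak of at least 1 library (47.9%, background over all chromosomes 35%), and 16 held one in all 9. Narrow pooled peaks lay in 259 genes over BDNF (27.6%, background 14%) and in 218 over Naive (23.2%, background 12.3%). The genes with the most library peaks were long, and many are known from neurons. CNTNAP2, a neurexin-like adhesion molecule of axons, led with 105 peaks. It spans 146116801 to 148420998 and had 25, 10 and 9 peaks for Naive, 12, 7 and 10 for BDNF, and 16, 8 and 8 for BDNF+Dox. No group stood apart in CNTNAP2 (exact permutation p = 0.393, adjusted over the genome 1).

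MAGI2, a synaptic scaffold protein at 78017055 to 79453667, had 12, 3 and 4 peaks for Naive, 2, 6 and 6 for BDNF, and 10, 3 and 5 for BDNF+Dox. CALN1, a neuronal calcium-binding protein at 71779491 to 72504279, had 12, 5 and 5 for Naive, 2, 3 and 3 for BDNF, and 4, 2 and 5 for BDNF+Dox. SEMA3A, a secreted repellent of growing axons at 83955777 to 84492725, had 8, 2 and 2 for Naive, 1, 3 and 6 for BDNF, and 7, 4 and 6 for BDNF+Dox. In MAGI2 and SEMA3A the counts of the groups overlapped. In CALN1 every Naive count lay above every BDNF count and the BDNF+Dox counts overlapped both, and the shares did not separate the groups (exact permutation p of the F ratio = 0.186, adjusted 1). In all 3 genes the highest count was that of Naive 1, the library with the most peaks. The next were DPP6, a potassium channel subunit, FOXP2, a forkhead factor linked to speech, and PDE1C, a cyclic nucleotide phosphodiesterase, with 36 peaks each. GRM8, a glutamate receptor, held 35 and CADPS2, a regulator of vesicle release, 34.

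Per length, the long genes were close to the chromosome as a whole. The 26 genes of 500 kb or more held 790 peaks, or 30.0% of those in protein-coding genes. Summed, this was 0.407 peaks per 100 kb and library, against 0.388 over all genes and 0.409 over the whole chromosome, and the median of the 26 was 0.384. SEMA3A was the densest of the 26 with 0.807 and AUTS2, a regulator of neuronal development, the sparsest with 0.242.

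**Figure D5:**
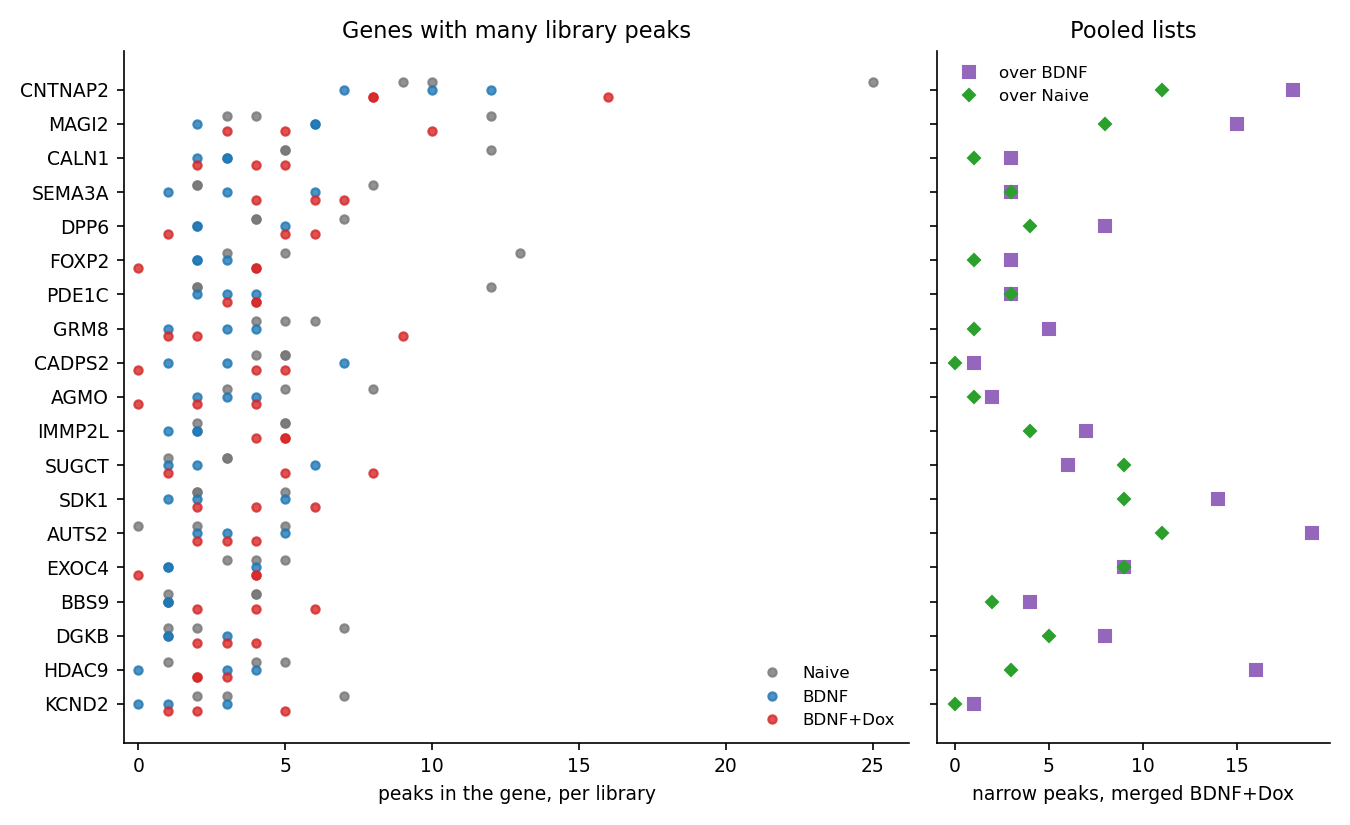
Number of peaks (x axes) in genes of chromosome 7 with many library peaks (y axis); left, points are single libraries coloured by group, and right, narrow peaks of merged BDNF+Dox reads over BDNF (squares) or over Naive (diamonds). Naive 1 is the point at 25 in CNTNAP2, and AUTS2 has the most pooled peaks over BDNF, 19.

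The pooled lists ordered the same long genes differently. AUTS2 held 19 narrow peaks over BDNF and 11 over Naive, where the libraries had 5, 0 and 2 for Naive, 2, 3 and 5 for BDNF, and 3, 2 and 4 for BDNF+Dox. HDAC9, a class II histone deacetylase, held 16 and 3, and SDK1, a synaptic adhesion molecule, 14 and 9. CNTNAP2 held 18 and 11, and MAGI2 15 and 8. The 2 comparisons share the BDNF+Dox reads, and the pooled lists have no replicates.

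Of the 232 genes with a peak in 3 or more libraries, none was called as different between the groups after adjustment, with peaks per gene taken as a share of the library's peaks (exact permutation of the F ratio, 0 called, background 0%, smallest adjusted p = 1). The smallest p this test can give is 0.00357, and the adjustment ran over 2536 genes. It therefore had little reach for any single gene, and no test without this floor was run on genes. Without adjustment 7 genes had a p under 0.05, or about as many of those tested as the background of 3.86%. PTPN12, a tyrosine phosphatase, had 3, 1 and 2 peaks for Naive, 0 in each BDNF library, and 1, 1 and 0 in BDNF+Dox (exact permutation p = 0.0143, adjusted 1). COG5, a subunit of a Golgi tethering complex, had 2, 0 and 0 in Naive, 1, 0 and 1 in BDNF, and 3 in each BDNF+Dox library (exact permutation p = 0.0357, adjusted 1). The others were HIBADH, JAZF1, CLCN1, PRKAR2B and SEPTIN7, each with at most 3 peaks in a library and the same p as COG5.

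Gene groups were described by their counts, beside the 449 of 938 genes with a library peak and the median of 0 peaks over all genes. In the group of neuronal adhesion and synapse genes, 15 of 19 held a library peak, 423 peaks in all, and 14 held a pooled narrow peak over BDNF. Their density was 0.441 peaks per 100 kb and library, against 0.388 over all genes. In axon guidance and growth, 9 of 14 genes held 148 peaks, at 0.352 per 100 kb and library. Median gene length was 409 kb in the first list and 270 kb in the second, against 27.3 kb over all genes. The HOXA list held the HOXA cluster, whose homeobox genes set position along the body axis, and the neighbouring homeobox gene EVX1. Of its 12 genes, 2 held 2 peaks, at 0.252 per 100 kb and library. In the Williams region 6 of 21 genes held 9 peaks, at 0.121 per 100 kb and library.

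Among chromatin and BAF genes 8 of 12 held 55 peaks, of which 24 lay in HDAC9, 15 in KMT2C and 6 in KMT2E, both histone H3 methyltransferase family genes, and 4 in EZH2, the Polycomb methyltransferase. Imprinted genes and their neighbours had 8 of 12 with 49 peaks, growth factor and signalling genes 10 of 18 with 76, and forkhead, homeobox and other neuronal regulators 6 of 12 with 80. Zinc finger genes had 18 of 35 with 66 peaks, 24 of them in ZNF804B, and olfactory receptor genes 3 of 15 with 3. Per 100 kb and library the density was 0.352 for chromatin and BAF genes, 0.479 for imprinted genes and neighbours, and 0.328 for signalling genes. It was 0.588 for the neuronal regulators, 0.431 for zinc finger genes and 0.359 for olfactory receptor genes, against 0.388 over all genes. None of the members tested, those with a peak in 3 or more libraries, was called as different between the groups (exact permutation of the F ratio, 0 called, and 0 at an unadjusted p under 0.05). The limit given above for the gene test applies here too. Tested were 14 of 19 neuronal adhesion and synapse genes, 9 of 14 axon guidance genes, 4 of 12 chromatin and BAF genes, 1 of 21 in the Williams region, and 0 of the HOXA and olfactory receptor genes. Markers of other cells or states held 13 peaks in 3 of 10 mesenchymal neuroblastoma genes, 3 in 3 of 5 lymphoid genes and 10 in 4 of 5 liver and gut genes. Of the noradrenergic markers, DDC held 6 peaks and NPY 0. Per 100 kb and library these lists had 0.309, 0.13, 0.289 and 0.582 in this order, against 0.388 over all genes, and their part in these results was not tested.

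The same place rarely held a peak in several libraries. Merged by an overlap of 1 bp, the library peaks of chromosome 7 formed 5502 regions, of which 5245 (95.3%) had a peak in 1 library, 233 in 2, 24 in 3 and 0 in more. The 24 were 0.436% of the regions, against a background of 0.137% in 3 or more libraries over all chromosomes. Of the 24, 13 lay in protein-coding genes, among them SUGCT, EXOC4, PTPRN2 and NRCAM. Without Naive 1 there were 9 such regions, and without BDNF+Dox 1 there were 13.

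Only 2 of the 24 had all their peaks in 1 group. The region 108322116 to 108322426 in NRCAM, a neuronal adhesion molecule, met the rule of a peak in every BDNF+Dox and no BDNF library (1 region on chromosome 7, background 0.00305%). Its folds were 3.01, 3.92 and 3.40 in the authors' deposited table. The region 54290281 to 54290565, 252 kb from VSTM2A, met that of every Naive and no BDNF library (1 region, background 0.00457%), with folds of 3.28, 3.57 and 3.46 in the authors' deposited table. With 3 libraries against 3 no single region can reach an exact p below 0.1.

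Few pooled peaks passed the authors' own q. At a q of 0.05 or less the authors' deposited table held 19 of 982 narrow peaks over BDNF on chromosome 7 (background 0.822%) and 11 of 747 over Naive (background 1.01%). It held 0 of 2495 broad peaks over BDNF (background 0.0198%) and 0 of 1957 over Naive (background 0.0149%). The last narrow peak inside this limit over BDNF lay in CNTNAP2 with q = 0.0477, tied with that at CHN2, and the first outside had q = 0.0515 in the authors' deposited table. Of the narrow peaks over BDNF, 182 (18.5%) overlapped a peak of a BDNF+Dox library, as did 17.9% elsewhere. Over Naive these were 134 (17.9%) and 18.4%.

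By q, the peaks over BDNF after NRCAM lay at 97360899 to 97361111, in GALNT17, a glycosyltransferase, and 1.42 kb from UPP1. In GALNT17 (71152050 to 71152549) the authors' deposited table gives fold 4.42 and q = 0.00125. Over Naive the strongest lay at 144302530 to 144302767 in the antisense gene OR2A1-AS1 (fold 4.70, q = 1.84e-05 in the authors' deposited table), then near SPAM1, in SND1, in BAIAP2L1 and in AUTS2. The widest broad peaks in genes were 1268 bp in CNTNAP2 over BDNF and 1360 bp in CDK6, a cell cycle kinase, over Naive, both per the authors' deposited table.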

How the data were processed

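Peak lists of 9 H4R3me2s libraries, 3 per group, and of 4 pooled comparisons were used, grouped by their labels. The tools, per the submitters' processing notes, were cutadapt 1.1, Trimmomatic 0.32, Bowtie (version not given in the sources used here) and MACS2 2.2.7.1, with build GRCh38. Per the file headers, the caller's cutoff on p was 0.01, with each library against Input, and with merged BDNF+Dox over merged BDNF or Naive reads. The deposited pileup is the authors' fragment signal at a peak, the deposited fold is the authors' ratio of treatment to local control, and the deposited −log10 p and −log10 q are the authors' values. The headers announce no q-values, but the deposited column holds them, and they were used as given. Libraries kept 17164402 to 18928589 reads and the Input 17074000, per the file headers. Lists hold no reads per region, so no interval per peak was computed.

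Usable length was the 1 Mb windows with a gene or library peak, and arms were split at 60 Mb. Genes and starts came from RefSeq GRCh38.p14, by whole span, without exons. Control background was recovered as (pileup + 1) / fold − 1. Groups were compared by exact permutation of the F ratio, pairs by exact permutation (smallest p 0.1), and chromosome 7 with the rest by exact sign flips over 9 libraries, with Benjamini-Hochberg adjustment, over all bins or genes of the genome where many were tested. limma 3.58.1 (R 4.3.3) was run on log2(share + 0.01%). The rest used Python 3.11.15, numpy 2.4.6, pandas 2.3.3 and scipy 1.17.1, tested on simulated data. Named genes were the 10 with the most library peaks, those with the smallest p, those holding recurring or pooled top peaks and the leading members of each list, and some results of this rule are left out here. HIBADH, JAZF1, CLCN1, PRKAR2B and SEPTIN7 complete the count of unadjusted genes. Members and lists were chosen with earlier results of these data known. Alternatives were a stricter −log10 p of 3, equal peak numbers, other windows and bins, genes widened by 10 kb, a replicate block and leaving out each library.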

Additional observations from a re-analysis of the deposited data

How the results depend on the processing

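Of 135 alternative values of the main results, 116 were rated the same, by direction and side of the threshold where there was a p. These include the counts of called bins and genes, which stayed at 0. Given the little reach of the permutation test, those counts could hardly change. Leaving out a Naive library cannot change a difference of BDNF+Dox from BDNF, only its p. Counts have no direction, and some that changed, such as 36 recurring regions in place of 24, were still rated the same. The density over other autosomes stayed above 1 under each alternative run. At a −log10 p of 3 or more, recurring regions numbered 15 in place of 24, where joining peaks within 200 bp gave 36, and the chromosome 7 share of broad peaks was 11.7% over BDNF and 10.2% over Naive. With the replicate block the gene-body difference of BDNF+Dox over BDNF was 3.67 points, and the exact permutation p of the F ratio over the 3 groups was 0.0556 in place of 0.0143, and same-numbered libraries did not deviate together (r from −0.273 to 0.129). Leaving out 1 library moved that difference between 2.58 and 4.67 points. It fell to 3.32 without BDNF+Dox 2 and 3.29 without BDNF+Dox 3 (exact permutation p of the F ratio over the 3 groups = 0.05 for both). Recurring regions then numbered 9 to 19, with 13 without BDNF+Dox 1. Regions in all libraries of 1 group numbered 1 to 2, but only groups with 3 libraries were counted. Leaving out a Naive or BDNF+Dox library thus took the region of that group out by rule, which says nothing about its stability. Leaving out 1 library, the difference of BDNF+Dox from BDNF in peak number (170.3) kept its sign but ran from 56.5 without BDNF+Dox 1 to 257 without BDNF+Dox 2. Another 3 differences, none of which passed, changed sign. That of the chromosome 7 share (−0.322 points) ran from −1.11 to 0.450, with 0.450 without BDNF 2 and 0.291 without BDNF+Dox 2. That of the log2 density ratio (−0.0778) ran from −0.215 to 0.0585, with 0.0585 and 0.0422 without the same libraries. That of the log2 arm ratio (0.0352) ran from −0.0307, without BDNF 1, to 0.0787. The cause was not tested. The gene-body share with equal peak numbers, chosen after seeing the data, differed by 3.94 points (exact permutation p of the F ratio over the 3 groups = 0.0464). Unscaled peak numbers left 0 bins and 6 genes at an unadjusted p under 0.05.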
